A study of Homo sapiens with 9 samples.

Results

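The genes described are 10 core components of Notch signalling, namely the receptors NOTCH1, NOTCH2 and NOTCH3, the ligands DLL1, DLL3, DLL4, JAG1 and JAG2, and the Fringe glycosyltransferases LFNG and MFNG. They were chosen by name from the 21417 gene symbols of the deposited expression table, and a gene with several transcripts is represented by the 1 with the highest mean level. All 10 are in the table. Of these, 9 had a mean of at least 0.5 RPKM (reads per kilobase of transcript, scaled to the reads of the library), the minimum for a test, and DLL4 lay under it.

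Notch is a signalling route between touching cells. A ligand of the Delta-like or Jagged family on one cell pulls on a Notch receptor on its neighbour, the receptor is cut by ADAM proteases and then by gamma-secretase, and the freed intracellular part enters the nucleus and joins RBPJ and a Mastermind coactivator on target genes of the HES and HEY families. Fringe enzymes add N-acetylglucosamine to O-fucose on the receptor's EGF repeats in the Golgi, which as a rule favours activation by Delta-like ligands over Jagged ligands. In the embryo the pathway is known for holding neural progenitors back from becoming neurons and for the segmentation of paraxial mesoderm.

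The study compared 3 states of H9, a human embryonic stem cell line, with 3 libraries in each group. Neuroectoderm, the forerunner of the nervous system, was taken at day 5 of culture with the BMP antagonist NOGGIN (200 nM) and SB431542 (10 µM), an inhibitor of activin and Nodal receptors. Mesendoderm, the forerunner of mesoderm and endoderm, was taken at day 5 of culture with BMP4 (5 ng/ml) in mTeSR1. Undifferentiated cells, called hESC here, were taken at day 0 from mTeSR1 cultures on Matrigel. All 9 libraries come from 1 cell line, and the labels name no genetic change in any group.

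Defining markers followed the labels in part. Pluripotency markers remained in both lineages, in different genes. NANOG had 0.08 to 0.18 RPKM in neuroectoderm, 7.68 to 18.4 RPKM in mesendoderm and 20.7 to 23.2 RPKM in hESC. ZFP42 had 16.5 to 21.1, 75.4 to 91.8 and 80.4 to 85.4 RPKM in the same order. SOX2 had 33.1 to 47.8, 1.25 to 5.54 and 51.3 to 70.7 RPKM. The part of remaining pluripotent cells in the members' levels was not tested. In neuroectoderm PAX6 ranged over 20.1 to 33.4 RPKM and SOX1 over 16.7 to 24.6 RPKM, whereas LHX2 stayed at or under 0.20 RPKM. In mesendoderm T (Brachyury) ranged over 23.2 to 30.8 RPKM and MIXL1 over 41.8 to 86.8 RPKM, the endoderm markers SOX17 and FOXA2 stayed at or under 0.32 RPKM, and HAND1 (41.9 to 85.3 RPKM) and GABRP (24.3 to 47.1 RPKM), markers of lateral mesoderm and of amnion, were also present. The step between the low values of each library corresponds to a denominator of 36.2 to 69.2 M reads, so that 3 reads on 1 kb are worth 0.0434 to 0.0829 RPKM, a floor that covers counting error only. Neuroectoderm 1, mesendoderm 1 and hESC 2 stood apart from the other libraries of their groups on the third principal component, so results that rest on them are given with and without them. Fewer cells of a type and less RNA per cell cannot be told apart in these bulk samples. Whether the 3 libraries of a group stem from separate cultures is not said in the labels; the p-values therefore reflect the spread between these samples only, part of which may be technical.

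Sequence upstream of the members was read from RefSeq (build GRCh38.p14), which gives promoter windows of 250 bases before to 50 bases after the start of a transcript for 7 of the 10 members. The windows of LFNG and JAG1 are shown because these genes had the highest levels in neuroectoderm. LFNG lies on chromosome 7 and has 2 windows, 1 at the start of NM_001166355 and 1 at the start of NM_002304, the transcript whose values are reported. Capitals mark TGGGAA (reverse complement TTCCCA), the core of the site bound by RBPJ, and CACGCG (reverse complement CGCGTG), the class C site bound by HES proteins.
LFNG, start of NM_001166355, chr7:2512279-2512578, plus strand: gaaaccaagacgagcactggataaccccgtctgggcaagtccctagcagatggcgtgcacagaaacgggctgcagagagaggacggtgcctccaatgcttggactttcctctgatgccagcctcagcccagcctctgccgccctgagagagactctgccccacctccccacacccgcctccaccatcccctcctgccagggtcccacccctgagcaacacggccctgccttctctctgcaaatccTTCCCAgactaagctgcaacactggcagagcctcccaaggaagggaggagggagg
LFNG, start of NM_002304, chr7:2517613-2517912, plus strand: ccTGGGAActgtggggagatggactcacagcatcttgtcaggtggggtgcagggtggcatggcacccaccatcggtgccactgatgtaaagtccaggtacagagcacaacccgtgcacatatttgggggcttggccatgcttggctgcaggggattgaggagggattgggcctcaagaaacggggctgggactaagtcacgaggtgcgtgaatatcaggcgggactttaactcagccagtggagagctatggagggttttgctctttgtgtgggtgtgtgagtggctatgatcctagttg
JAG1, chr20:10673950-10674249, minus strand: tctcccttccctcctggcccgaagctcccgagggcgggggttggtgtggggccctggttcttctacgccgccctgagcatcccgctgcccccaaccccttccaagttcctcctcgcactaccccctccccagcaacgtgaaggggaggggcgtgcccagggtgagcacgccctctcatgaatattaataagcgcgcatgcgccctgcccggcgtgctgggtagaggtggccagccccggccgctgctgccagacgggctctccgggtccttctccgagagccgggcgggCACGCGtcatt
The first LFNG window holds the RBPJ core on the opposite strand, 5 bases before the transcript start (position -5). The second LFNG window holds it on the strand shown at position -248, and the JAG1 window holds no RBPJ core and 1 HES class C site at position 40 of the transcript. Matches of the 2 motifs did not overlap each other. Among all 35116 windows of this length in the RefSeq table, 24.0% hold an RBPJ core and 11.4% a HES class C site, so such matches are common. Of the other windows, those of JAG2 (position -236) and DLL4 (position -234) hold a HES class C site, and those of NOTCH1, NOTCH2 and NOTCH3 hold neither motif. A match describes letters in the window and is not evidence of binding.

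In neuroectoderm, 4 of the 9 tested members were higher than in hESC, the receptor NOTCH2, the ligands DLL1 and JAG1, and the enzyme LFNG, and the other 5 did not pass the test. Their mean levels in neuroectoderm were 3.0-fold (NOTCH2), 9.80-fold (DLL1), 8.63-fold (JAG1) and 6.16-fold (LFNG) those in hESC. The test was limma on log2(RPKM + 1) over 14473 genes, with a call at a Benjamini-Hochberg adjusted p under 0.05. It called 44.2% of all tested genes in this comparison, 21.9% of them as higher, so a call alone sets no gene apart. The values of the same 4 members did not overlap between neuroectoderm and hESC, against 51.9% of all tested genes (25.4% higher and 26.5% lower). The median log2 difference was 0.78 over the 9 tested members and -0.02 over all tested genes. Without neuroectoderm 1 the count was 7 of 9, with NOTCH3, DLL3 and MFNG added, and the members' median was 1.28. Calls over all tested genes rose as well in that fit, to 4051 higher and 3367 lower, from 3165 and 3227.

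In mesendoderm, DLL3 and JAG1 were higher than in hESC and LFNG and MFNG were lower, while the other 5 tested members did not pass. This comparison called 35.1% of all tested genes, 17.0% as higher and 18.1% as lower. The median log2 difference was 0.08 over the 9 tested members and -0.02 over all tested genes. The 4 called members were also those whose values did not overlap between the groups, against 54.7% of all tested genes (26.0% higher and 28.7% lower). Without mesendoderm 3 or without hESC 1 only the DLL3 call was left, and without mesendoderm 1 or hESC 3 there were 2 calls. Calls over all tested genes fell as well, from 2457 higher and 2620 lower. They were 1827 and 1813 without mesendoderm 3, and 1955 and 2136 without hESC 1. Without mesendoderm 1 they were 1986 and 2023, and without hESC 3 1934 and 1917. Both comparisons use the same hESC libraries and are therefore not independent.

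Set directly against mesendoderm, neuroectoderm had 5 higher members (NOTCH2, DLL1, JAG1, LFNG and MFNG) and 1 lower member (DLL3), and the other 3 tested members did not pass. Among all tested genes 24.0% were called higher and 24.1% lower in this comparison, 48.1% together. Values did not overlap for 6 of the 10 members, against 57.2% of all tested genes. These 6 were the 5 higher members and DLL4.

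**Figure D1:**
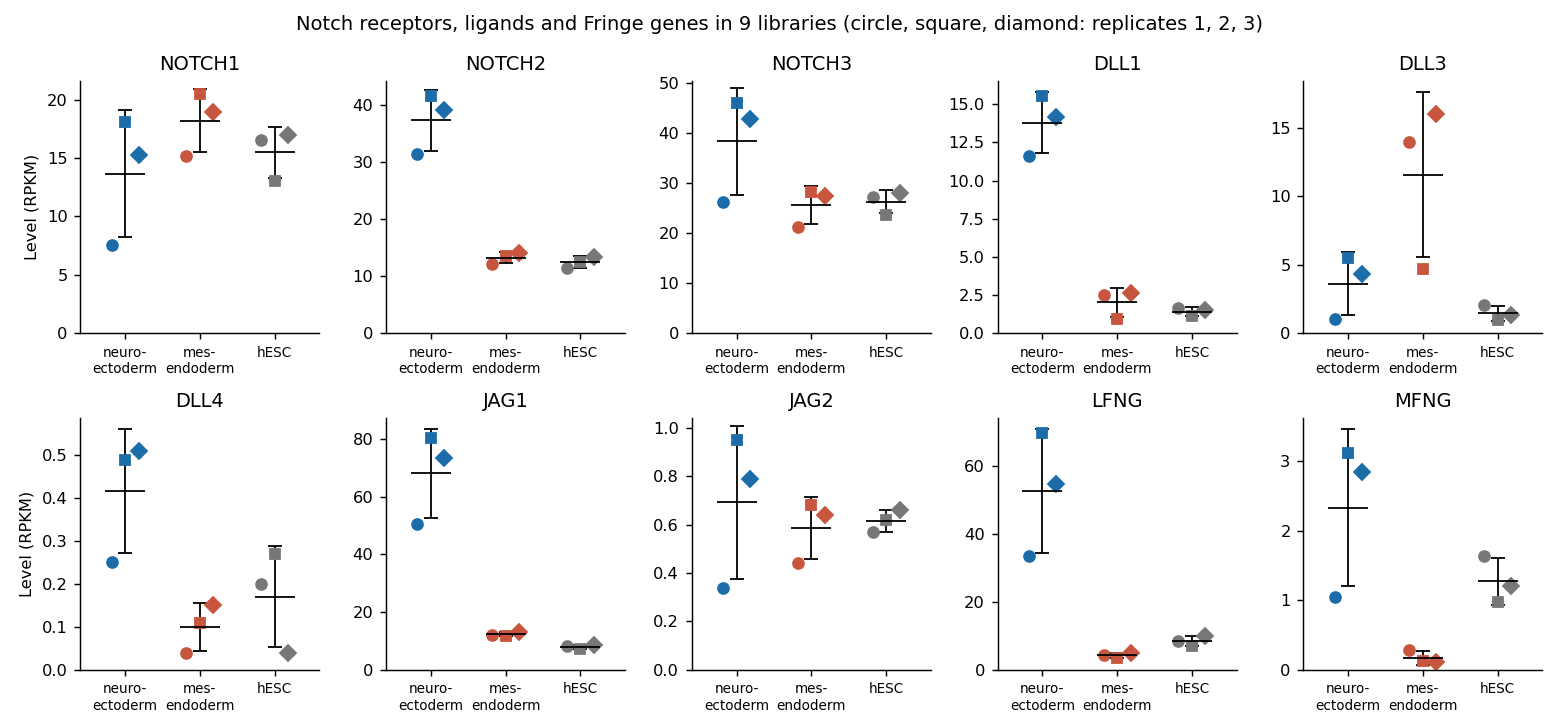
Level of each of the 10 members in each of the 9 libraries, in RPKM on linear axes that start at 0 and differ in range, with points for libraries, horizontal lines for group means and bars for the SD. JAG1 and LFNG reach 80.2 and 69.7 RPKM in neuroectoderm, and DLL4 and JAG2 stay under 1 RPKM in every library.

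NOTCH2, a widely expressed receptor encoded on chromosome 1, had 31.3, 41.5 and 39.1 RPKM in neuroectoderm libraries 1 to 3. It had 12.2, 13.5 and 14.0 RPKM in mesendoderm and 11.4, 12.5 and 13.4 RPKM in hESC. Every neuroectoderm library was thus well above all 6 others, and the mesendoderm and hESC ranges overlapped. On the log2 scale the difference was 1.5 ± 0.13 (SE) in neuroectoderm against hESC (limma, adjusted p = 2.3e-05) and 1.42 ± 0.13 in neuroectoderm against mesendoderm (adjusted p = 2.37e-05). In mesendoderm against hESC it was 0.08 ± 0.13 (adjusted p = 0.673). Without the 3 libraries that stood apart the first difference was 1.63 and the second 1.49.

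NOTCH2 has a near-identical partial copy, NOTCH2NL, and the counting of reads that match both is not given in the sources used here. NOTCH2NL averaged 3.38 ± 1.12 RPKM in neuroectoderm, 1.2 ± 0.0577 RPKM in mesendoderm and 1.46 ± 0.401 RPKM in hESC (SD, n = 3 each). Its log2 difference in neuroectoderm was 0.81 ± 0.18 against hESC (limma, adjusted p = 0.00562) and 0.97 ± 0.18 against mesendoderm (adjusted p = 0.00195). Reads may be shared between the copies, so the level of NOTCH2NL is uncertain, and that of NOTCH2 to the extent of the shared stretch.

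NOTCH3, on chromosome 19 and best known as a receptor of vascular smooth muscle and pericytes that is also present in neural progenitors, was at 26.2, 46.1 and 42.9 RPKM in neuroectoderm. Its values were 21.3, 28.1 and 27.4 RPKM in mesendoderm and 27.2, 23.7 and 27.9 RPKM in hESC. Libraries 2 and 3 of neuroectoderm lay above all others, and library 1 lay within the range of the other groups. The log2 difference of neuroectoderm was 0.49 ± 0.21 against hESC (limma, adjusted p = 0.0926) and 0.53 ± 0.21 against mesendoderm (adjusted p = 0.0676), and neither passed. That of mesendoderm against hESC was -0.04 ± 0.21 (adjusted p = 0.907). Without neuroectoderm 1 the differences were 0.74 (adjusted p = 0.00244) and 0.78 (adjusted p = 0.00173), so leaving out 1 library changed both calls. Median-of-ratios scaling also gave a call in both (adjusted p = 0.0284 and 0.0208), as did quantile normalisation (adjusted p = 0.00525 and 0.00235). With same-numbered neuroectoderm and mesendoderm libraries taken as pairs, a pairing that was not established, the difference between these groups also passed (adjusted p = 0.0337).

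Markers of contractile cells did not move together between the groups. The summed level of the 5 smooth muscle and pericyte markers was 361.4 to 424.4 RPKM in neuroectoderm, 225.0 to 256.9 RPKM in mesendoderm and 61.1 to 76 RPKM in hESC, most of it TAGLN. ACTA2, smooth muscle actin, had 37.1, 78.1 and 67.9 RPKM in neuroectoderm, 3.6 to 4.58 RPKM in mesendoderm and 0.3 to 0.4 RPKM in hESC, and PDGFRB, a pericyte receptor, had 4.95 to 5.9 RPKM in neuroectoderm, 11.9 to 14.6 RPKM in mesendoderm and 2.72 to 3.7 RPKM in hESC. MYH11 and CSPG4, like PDGFRB, did not follow the order of the sum. MYH11 was at 0.39 to 0.55 RPKM in neuroectoderm, against 0.35 to 0.41 RPKM in hESC. CSPG4 was at 0.11 to 0.19 RPKM in neuroectoderm, under the 1.32 to 1.67 RPKM of hESC. The part of these markers in the NOTCH3 and JAG1 levels was not tested.

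NOTCH1, on chromosome 9 and required in the early mouse embryo, did not pass in any comparison. It had 7.58, 18.1 and 15.3 RPKM in neuroectoderm, 15.2, 20.5 and 19.0 RPKM in mesendoderm and 16.5, 13 and 17.0 RPKM in hESC. Ranges of all 3 groups overlapped, and neuroectoderm 1 was the lowest of the 9 libraries. Log2 differences were -0.24 ± 0.28 in neuroectoderm against hESC (limma, adjusted p = 0.518), 0.22 ± 0.28 in mesendoderm against hESC (adjusted p = 0.583) and -0.46 ± 0.28 in neuroectoderm against mesendoderm (adjusted p = 0.198). Without neuroectoderm 1 the first of these was 0.10, with the opposite sign.

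JAG1, on chromosome 20, encodes a Jagged ligand that in the mouse neural tube marks domains of progenitors. It was the most abundant member in neuroectoderm. Its levels there were 50.6, 80.2 and 73.4 RPKM, against 12.1, 11.7 and 13.1 RPKM in mesendoderm and 8.06, 7.05 and 8.56 RPKM in hESC. The 3 groups did not overlap, with neuroectoderm highest and hESC lowest. The log2 difference was 2.93 ± 0.17 in neuroectoderm against hESC (limma, adjusted p = 2.01e-06) and 2.35 ± 0.17 in neuroectoderm against mesendoderm (adjusted p = 5.37e-06). In mesendoderm against hESC it was 0.58 ± 0.17 (adjusted p = 0.0259), a 1.56-fold higher mean.

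The smaller JAG1 difference of mesendoderm against hESC had a fragile call. It was lost when any 1 of the 6 libraries of these groups was left out, with adjusted p-values of 0.0654 without mesendoderm 1, 0.0526 without mesendoderm 2, 0.0928 without mesendoderm 3, 0.0625 without hESC 1, 0.0849 without hESC 2 and 0.0507 without hESC 3. The log2 difference stayed within 0.52 to 0.64 in these fits. It was also lost when small RNA genes were left out and the values rescaled (0.45, adjusted p = 0.0745). The annotation also has an antisense gene over JAG1, and reads of the 2 strands cannot be told apart where the counting ignores strand.

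DLL1, on chromosome 6, encodes the Delta ligand that, in mouse, cells entering neuronal differentiation display to their neighbours, and it also acts in presomitic mesoderm. In neuroectoderm it had 11.6, 15.6 and 14.2 RPKM. It had 2.49, 0.93 and 2.65 RPKM in mesendoderm and 1.63, 1.10 and 1.49 RPKM in hESC. All neuroectoderm libraries lay above all others, and the ranges of mesendoderm and hESC overlapped. The log2 difference of neuroectoderm was 2.62 ± 0.24 against hESC (limma, adjusted p = 3.01e-05) and 2.34 ± 0.24 against mesendoderm (adjusted p = 4.58e-05). For mesendoderm against hESC it was 0.28 ± 0.24 (adjusted p = 0.4), which became 0.57 (adjusted p = 0.022) without mesendoderm 2, the library with the lowest value.

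Neuron markers did not follow the DLL1 levels as a group. NEUROG2 and NEUROD1, transcription factors of neuronal differentiation, stayed at or under 0.12 RPKM in every library. The summed level of the 9 neuron markers was 11.2 to 29.2 RPKM in neuroectoderm, 14.1 to 20.4 RPKM in mesendoderm and 22.4 to 47.6 RPKM in hESC. TUBB3, the most abundant of them, had 2.64 to 18.1 RPKM in neuroectoderm, 13 to 19.7 RPKM in mesendoderm and 18.8 to 44.4 RPKM in hESC. The part of these markers in the DLL1 level was not tested. FAM120B overlaps DLL1 on the opposite strand and averaged 11.4 RPKM in neuroectoderm, 8.15 RPKM in mesendoderm and 5.78 RPKM in hESC. Its log2 difference in neuroectoderm against hESC was 0.87 ± 0.12 (limma, adjusted p = 0.000353), smaller than that of DLL1, and the strand used in counting is not given in the sources used here.

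DLL3, on chromosome 19, is a divergent Delta ligand that stays mostly inside the cell, does not activate receptors on neighbours and is required for somite segmentation. It was the member with the largest rise in mesendoderm. Mesendoderm libraries had 14.0, 4.72 and 16.0 RPKM and hESC libraries 2.05, 0.96 and 1.35 RPKM. All mesendoderm values lay above all hESC values, although mesendoderm 2 lay well under the other two mesendoderm libraries. The log2 difference was 2.23 ± 0.50 (limma, adjusted p = 0.00822), a 7.97-fold higher mean, and the adjusted p stayed between 0.00109 and 0.0364 over the 20 other settings.

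In neuroectoderm DLL3 had 1.05, 5.47 and 4.33 RPKM, so that library 1 lay within the hESC range and the other two above it. The log2 difference was 0.78 ± 0.50 against hESC (limma, adjusted p = 0.245), and 1.28 (adjusted p = 0.0324) without neuroectoderm 1. Against mesendoderm it was -1.46 ± 0.50 (adjusted p = 0.0393), although the ranges overlapped. This last call was lost in 11 of the 20 other settings, with an adjusted p of 0.0514 to 0.188. Without neuroectoderm 1 the difference was -0.95 (adjusted p = 0.0903), and without all 3 libraries that stood apart -0.75 (adjusted p = 0.188). The other libraries whose omission ended the call were neuroectoderm 3 (0.0525), mesendoderm 1 (0.116), mesendoderm 3 (0.135), hESC 1 (0.0538), hESC 2 (0.0514) and hESC 3 (0.0578), each with its adjusted p. With the replicate number as a block the adjusted p was 0.0639 over all 9 libraries and 0.0964 over the 6 neuroectoderm and mesendoderm libraries alone.

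Mesendoderm 2, the lowest mesendoderm library in DLL3, was also the lowest in several mesoderm markers. MSGN1, a transcription factor of presomitic mesoderm, had 15.4, 2.71 and 12.6 RPKM in mesendoderm 1 to 3. TBX6, which acts with it in presomitic mesoderm and is counted here among the streak markers, had 7.09, 2.84 and 6.37 RPKM. The summed level of the 6 paraxial and lateral mesoderm markers was 112.0, 48.9 and 101.7 RPKM in these libraries, against 1.16 to 1.88 RPKM in hESC. The sum of the 6 mesendoderm and primitive streak markers was 99.0, 153.7 and 151.2 RPKM, so it did not set mesendoderm 2 apart from mesendoderm 3. Mesendoderm 2 was also the highest of these libraries in NANOG (7.68, 18.42 and 10.55 RPKM), TDGF1 (14.11, 34.22 and 22.9 RPKM), SOX2 and DPPA4. It was the lowest in the pluripotency markers ZFP42 (91.8, 75.37 and 80.63 RPKM) and LIN28A. The part of this makeup in the DLL3 level was not tested.

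JAG2 and DLL4 were the members that stayed under 1 RPKM in every library. JAG2, on chromosome 14 and a Jagged ligand needed for limb and craniofacial development in mouse, had 0.34, 0.95 and 0.79 RPKM in neuroectoderm, 0.44, 0.68 and 0.64 RPKM in mesendoderm and 0.57, 0.62 and 0.66 RPKM in hESC. All 3 ranges overlapped, and its log2 differences did not pass, at 0.05 for neuroectoderm against hESC (limma, adjusted p = 0.807), -0.03 for mesendoderm against hESC (adjusted p = 0.896) and 0.08 for neuroectoderm against mesendoderm (adjusted p = 0.665), each ± 0.14. DLL4, on chromosome 15 and the Delta ligand of endothelial tip cells, had 0.25, 0.49 and 0.51 RPKM in neuroectoderm, 0.04, 0.11 and 0.15 RPKM in mesendoderm and 0.20, 0.27 and 0.04 RPKM in hESC. The DLL4 values stand for about 6 to 116 reads per library and those of JAG2 for about 79 to 384. With no minimum on the mean, the log2 difference of DLL4 in neuroectoderm was 0.28 ± 0.09 against hESC (limma, adjusted p = 0.0523) and 0.36 ± 0.09 against mesendoderm (adjusted p = 0.0158).

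The endothelial and blood markers differed in direction between the groups. Their summed level was 15.4 to 18.2 RPKM in neuroectoderm, where DLL4 was highest, 83.8 to 90.4 RPKM in mesendoderm and 30.4 to 31.1 RPKM in hESC. KDR, which is shared by early mesoderm and endothelium, had 3.25 to 4.1 RPKM in neuroectoderm, 80.7 to 86.4 RPKM in mesendoderm and 20.9 to 23.5 RPKM in hESC. TEK, an angiopoietin receptor, had 8.36 to 11.3 RPKM in neuroectoderm, 1.57 to 1.68 RPKM in mesendoderm and 5.35 to 5.97 RPKM in hESC. CD34 had 0.41 to 0.5 RPKM in neuroectoderm, 0.02 to 0.04 RPKM in mesendoderm and 0.29 to 0.45 RPKM in hESC. The defining endothelial genes PECAM1 and CDH5 stayed at or under 0.10 and 0.22 RPKM in all 9 libraries.

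**Figure D2:**
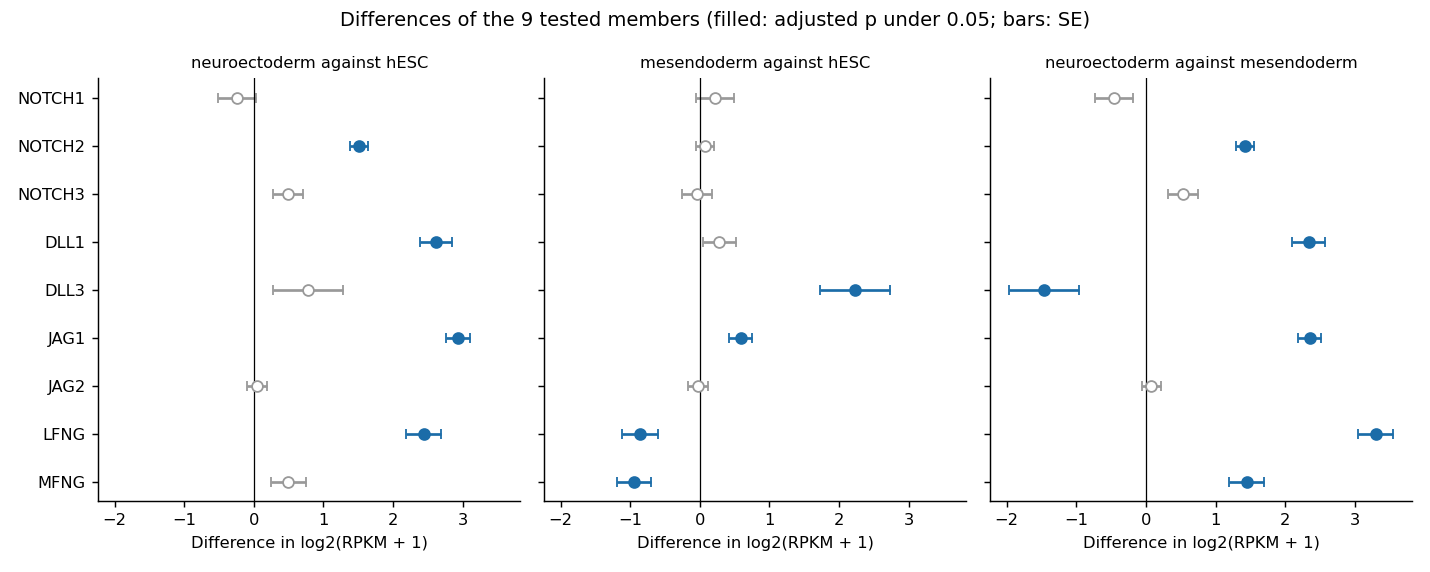
Log2 difference (log2 of RPKM + 1) of each of the 9 tested members in each of the 3 comparisons, with bars for the SE and filled points for calls at an adjusted p under 0.05. LFNG lies at 2.44 (neuroectoderm against hESC), -0.86 (mesendoderm against hESC) and 3.30 (neuroectoderm against mesendoderm), and DLL3 at 0.78, 2.23 and -1.46 in the same order.

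LFNG, on chromosome 7, encodes Lunatic fringe, which in mouse presomitic mesoderm is transcribed in waves and in the neural tube marks progenitor domains. Its levels were 33.4, 69.7 and 54.8 RPKM in neuroectoderm. They were 4.44, 3.46 and 4.85 RPKM in mesendoderm and 8.57, 7.0 and 10.1 RPKM in hESC. The 3 groups did not overlap, and LFNG was the 1 member that was called higher in neuroectoderm and lower in mesendoderm, each against hESC. The log2 difference was 2.44 ± 0.25 in neuroectoderm against hESC (limma, adjusted p = 6.84e-05), -0.86 ± 0.25 in mesendoderm against hESC (adjusted p = 0.0271) and 3.30 ± 0.25 in neuroectoderm against mesendoderm (adjusted p = 7.71e-06).

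The LFNG mean in neuroectoderm was 12.4-fold that in mesendoderm. This difference kept its direction and its call in every setting tried, at 3.07 to 3.62 on the log2 scale. The call for mesendoderm against hESC was less firm. It was lost without mesendoderm 1 (adjusted p = 0.0628), mesendoderm 2 (0.0908), mesendoderm 3 (0.052), hESC 1 (0.0724) or hESC 3 (0.0956), and the log2 difference in the fits that left out 1 library lay between -0.98 and -0.75. Without the 3 libraries that stood apart it was -1.01 (adjusted p = 0.00289).

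MFNG, on chromosome 22, encodes Manic fringe, an enzyme of the same activity. It had 1.04, 3.11 and 2.84 RPKM in neuroectoderm, 0.28, 0.12 and 0.11 RPKM in mesendoderm and 1.64, 0.97 and 1.2 RPKM in hESC. All mesendoderm values lay under all others, and the neuroectoderm and hESC ranges overlapped. The log2 difference was 0.50 ± 0.25 in neuroectoderm against hESC (limma, adjusted p = 0.136), -0.95 ± 0.25 in mesendoderm against hESC (adjusted p = 0.0162) and 1.45 ± 0.25 in neuroectoderm against mesendoderm (adjusted p = 0.00123). At levels this low the added 1 RPKM compresses the differences, and the ratio of the means was 0.134 in mesendoderm against hESC. Neuroectoderm against hESC reached 0.82 (adjusted p = 0.00136) without neuroectoderm 1, and mesendoderm against hESC lost its call without hESC 1 (adjusted p = 0.0615) or mesendoderm 3 (0.0564).

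Neuroectoderm 1 was low for every tested member. All 9 lay under the mean of the other 2 neuroectoderm libraries, by a median of -0.74 on the log2 scale, from -0.33 for DLL1 to -1.52 for DLL3. Over all 14473 tested genes the median was -0.155. It was -0.41 over the 6801 genes with a known transcript within the members' range of GC content (49.4% to 67.3%). The deviation of this library fell with GC content across genes, from a median of 0.23 at 35% to 40% GC to -0.55 at 60% to 65% GC. The other libraries that stood apart shared this direction. The Spearman correlation between GC content and deviation from the group mean was -0.563 in neuroectoderm 1, -0.619 in hESC 2 and -0.290 in mesendoderm 1. It was positive in every other library. In hESC 2, 7 of the 9 tested members lay under the mean of the other 2 hESC libraries. GC content is that of the GENCODE v29 transcript, and genes are not independent replicates. The members with the lowest GC content, NOTCH2 (49.4%) and JAG1 (49.6%), deviated by -0.35 and -0.59. The part of GC content in the members' spread was not tested.

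**Figure D3:**
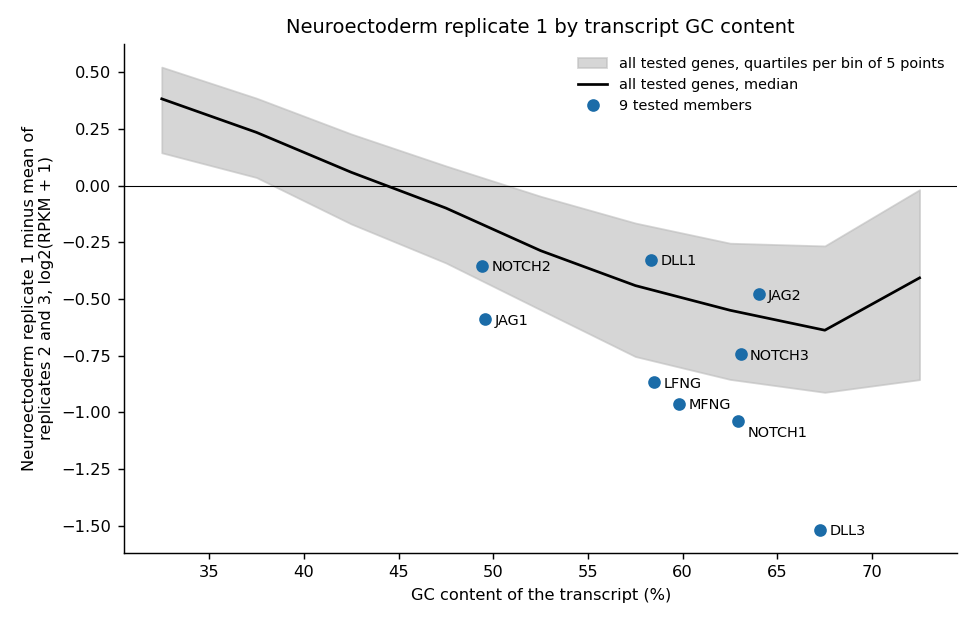
Deviation of neuroectoderm 1 from the mean of neuroectoderm 2 and 3 (log2 of RPKM + 1) against transcript GC content in percent, with the median and quartiles of all tested genes in bins of GC content and the 9 tested members as labelled points. The median of all genes passes from above 0 at low GC content to -0.55 at 60% to 65%, and all 9 members lie under 0.

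RPKM is scaled to transcript length, so levels of different members can be set side by side as an approximation. It is not scaled to GC content, which was 49.4% to 67.3% over the tested members. The part of GC content in the order and shares that follow was not tested. In neuroectoderm the order was JAG1 (68.1 ± 15.5 RPKM), LFNG (52.6 ± 18.3), NOTCH3 (38.4 ± 10.7), NOTCH2 (37.3 ± 5.32), DLL1 (13.8 ± 2.0), NOTCH1 (13.6 ± 5.44), DLL3 (3.62 ± 2.29), MFNG (2.33 ± 1.13), JAG2 (0.693 ± 0.316) and DLL4 (0.417 ± 0.145), as mean ± SD of 3 libraries in RPKM. Neighbours did not overlap between NOTCH2 and DLL1, between NOTCH1 and DLL3 and between MFNG and JAG2, and every other pair of neighbours overlapped.

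In mesendoderm and hESC the receptors came first. NOTCH3 (25.6 ± 3.75 RPKM), NOTCH1 (18.2 ± 2.72) and NOTCH2 (13.2 ± 0.929) led in mesendoderm, followed by JAG1 (12.3 ± 0.739), DLL3 (11.6 ± 6.03), LFNG (4.25 ± 0.714), DLL1 (2.02 ± 0.950), JAG2 (0.587 ± 0.129), MFNG (0.170 ± 0.0954) and DLL4 (0.10 ± 0.0557). There NOTCH2 and JAG1, JAG1 and DLL3, DLL3 and LFNG, and MFNG and DLL4 overlapped. NOTCH3 (26.3 ± 2.29 RPKM), NOTCH1 (15.5 ± 2.18) and NOTCH2 (12.4 ± 0.982) also led in hESC, followed by LFNG (8.54 ± 1.53), JAG1 (7.89 ± 0.769), DLL3 (1.45 ± 0.552), DLL1 (1.41 ± 0.275), MFNG (1.27 ± 0.340), JAG2 (0.617 ± 0.0451) and DLL4 (0.170 ± 0.118). The overlapping neighbours in hESC were NOTCH1 and NOTCH2, LFNG and JAG1, DLL3 and DLL1, and DLL1 and MFNG. The median library placed JAG1 at percentile 94.6 of the tested genes in neuroectoderm, percentile 67.3 in mesendoderm and percentile 56.8 in hESC.

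The mix within each role differed between the groups. Of the summed RPKM of the 3 receptors, NOTCH2 made up 42.5% ± 4.87 in neuroectoderm, 23.3% ± 1.67 in mesendoderm and 23.0% ± 2.39 in hESC (SD, n = 3 each). NOTCH1 made up 14.8% ± 2.83 in neuroectoderm, 31.9% ± 0.984 in mesendoderm and 28.5% ± 1.86 in hESC. In neuroectoderm 1 to 3 the NOTCH2 share was 48.1%, 39.3% and 40.2%, and the NOTCH1 share 11.7%, 17.1% and 15.7%. NOTCH3 stayed between 40.2% and 49.3% in every library. These shares are of RNA levels and do not give the amount of receptor at the cell surface.

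Summed over the 5 ligands, neuroectoderm had 86.6 ± 20.2 RPKM, mesendoderm 26.6 ± 7.55 RPKM and hESC 11.5 ± 1.35 RPKM. JAG1 was 78.7% ± 0.569 of the ligand sum in neuroectoderm, 48.8% ± 13.6 in mesendoderm and 68.6% ± 3.58 in hESC. DLL3, which does not activate receptors in trans, was 3.87% ± 1.96 in neuroectoderm, 41.1% ± 13.1 in mesendoderm and 12.4% ± 3.55 in hESC. By library the DLL3 share in mesendoderm was 48.1%, 26.0% and 49.2%. DLL1 made up 16.2% ± 1.74 in neuroectoderm, 7.28% ± 1.87 in mesendoderm and 12.1% ± 1.03 in hESC.

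Of the 3 human Fringe genes, RFNG (Radical fringe) did not pass in either comparison with hESC. It averaged 10.6 ± 2.10 RPKM in neuroectoderm, 10.8 ± 0.621 RPKM in mesendoderm and 10.2 ± 1.66 RPKM in hESC, and its log2 differences were 0.05 in neuroectoderm against hESC and 0.08 in mesendoderm against hESC, each ± 0.16 (limma, adjusted p = 0.824 and 0.724). LFNG made up 79.8% ± 2.15 of the summed Fringe RPKM in neuroectoderm, 27.8% ± 2.88 in mesendoderm and 42.6% ± 0.661 in hESC. RFNG made up 16.8% ± 2.62 in neuroectoderm, 71.1% ± 2.79 in mesendoderm and 51% ± 1.61 in hESC. LFNG was the leading Fringe transcript in every neuroectoderm library, and RFNG in every mesendoderm and hESC library.

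**Figure D4:**
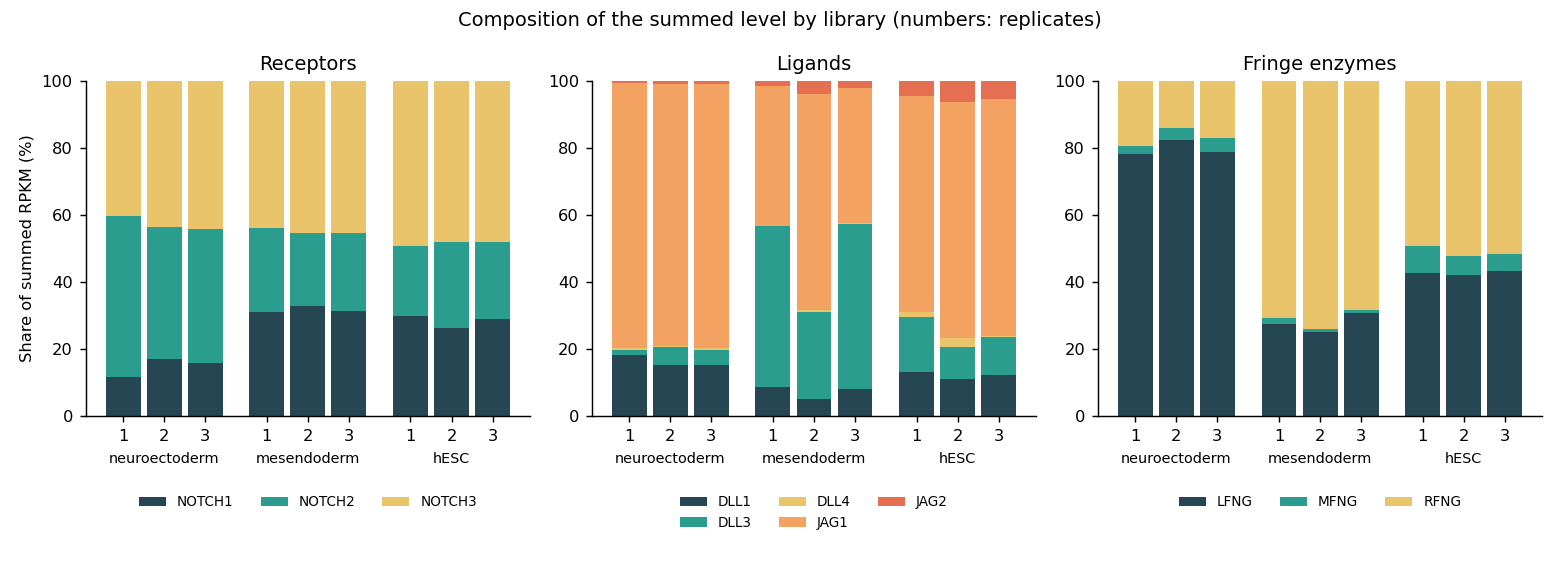
Share of each gene in the summed RPKM of the receptors, the ligands and the Fringe genes, in percent, for each library of neuroectoderm, mesendoderm and hESC. NOTCH2 averages 42.5% of the receptors in neuroectoderm, DLL3 41.1% of the ligands in mesendoderm and LFNG 79.8% of the Fringe genes in neuroectoderm.

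Several members are listed with more than 1 transcript, and transcripts of 1 gene share reads. LFNG has 4 rows, whose means in neuroectoderm ran from 33.3 RPKM (NM_001040168) to 52.6 RPKM (NM_002304). The short row NM_001040168 stood at 36.5%, 73.1% and 67.1% of NM_002304 in neuroectoderm, at 52.5%, 74.0% and 69.7% in mesendoderm and at 68.8%, 64.7% and 74.3% in hESC. It was lowest in neuroectoderm 1 and mesendoderm 1, and it is also the member transcript with the highest GC content (68.6%). The 2 NOTCH2 rows averaged 37.3 and 31.4 RPKM in neuroectoderm, 13.2 and 12.2 RPKM in mesendoderm and 12.4 and 10.7 RPKM in hESC. The 2 DLL3 rows averaged 11.6 and 10.2 RPKM in mesendoderm and 1.45 and 1.33 RPKM in hESC.

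The other genes of the pathway were described from a list of 67, of which 66 are in the table and 64 were tested (NOTCH4 was not analysed here). In neuroectoderm against hESC 21 were higher, 12 lower and 31 did not pass, and the median log2 difference was 0.13 over the list and -0.02 over all tested genes. In mesendoderm against hESC 16 were higher, 15 lower and 33 did not pass, with a median of -0.08 over the list and -0.02 over all tested genes. The lower count was 8 without mesendoderm 1 or hESC 3 and 9 without mesendoderm 3. Over all tested genes the lower calls also fell, from 2620 to 2023, 1917 and 1813 in these fits. In neuroectoderm against mesendoderm 20 of the list were higher, 15 lower and 29 did not pass. The median was 0.08 over the list and -0.01 over all tested genes. Read against the 21.9% and 22.3% of all tested genes called higher and lower in neuroectoderm against hESC, the list had 32.8% and 18.8%. In mesendoderm against hESC it had 25% higher and 23.4% lower, against 17.0% and 18.1% of all tested genes. In neuroectoderm against mesendoderm it had 31.3% higher and 23.4% lower, against 24.0% and 24.1%.

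Among other ligand-like genes, DLK1, a Delta-like protein that lacks the receptor-binding domain of true ligands, averaged 33.6 ± 4.71 RPKM in neuroectoderm, 0.287 ± 0.178 RPKM in mesendoderm and 0.547 ± 0.540 RPKM in hESC. Its log2 difference in neuroectoderm was 4.53 against hESC (limma, adjusted p = 8.46e-07) and 4.75 against mesendoderm (adjusted p = 3.9e-07). CNTN1, a neural adhesion molecule reported as a non-canonical ligand, was lower than in hESC in both lineages, with a mean of 0.103 RPKM in neuroectoderm and 0.227 RPKM in mesendoderm, against 3.43 RPKM in hESC. DNER was lower in mesendoderm against hESC (-0.61, adjusted p = 0.0055).

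Enzymes that modify the receptor's EGF repeats were called in both directions. In neuroectoderm against hESC 3 of 9 were higher and 2 lower, and in mesendoderm against hESC 3 were higher and the other 6 did not pass. For comparison, 44.2% of all tested genes were called in the first of these comparisons and 35.1% in the second. EOGT, which adds O-linked N-acetylglucosamine, averaged 0.417 RPKM in neuroectoderm, 6.99 RPKM in mesendoderm and 4.18 RPKM in hESC. GXYLT2, a xylosyltransferase that extends O-glucose, averaged 0.247 RPKM in neuroectoderm, 2.81 RPKM in mesendoderm and 1.90 RPKM in hESC. Both were lower in neuroectoderm than in either other group (EOGT, -1.88 and -2.50, adjusted p = 1.8e-06 and 2.25e-07). POFUT1, which adds the O-fucose that Fringe extends, averaged 10.9 RPKM in neuroectoderm, 10.7 RPKM in mesendoderm and 8.85 RPKM in hESC, and its call in neuroectoderm against hESC (0.27, adjusted p = 0.0418) was lost in 13 of 20 other settings. B3GNT2 was higher in mesendoderm than in hESC (0.61, adjusted p = 0.00469).

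Of the 9 genes for receptor cleavage, 3 were higher and 1 lower in each of the comparisons with hESC, and 4 were higher and 2 lower in neuroectoderm against mesendoderm. Together that is 4 of 9 in each comparison with hESC. Of all tested genes 44.2% were called in neuroectoderm against hESC and 35.1% in mesendoderm against hESC, so these counts do not set the role apart. In neuroectoderm against mesendoderm the share of all tested genes was 48.1%. FURIN, the convertase that cuts the receptor during its maturation, averaged 8.24 ± 3.20 RPKM in neuroectoderm, 41.0 ± 3.74 RPKM in mesendoderm and 6.97 ± 1.19 RPKM in hESC. Its log2 difference was 2.40 in mesendoderm against hESC (limma, adjusted p = 0.000108) and 0.16 in neuroectoderm against hESC (adjusted p = 0.655). APH1B, a gamma-secretase subunit, was lower in neuroectoderm against hESC (-1.35, adjusted p = 7.63e-06). ADAM17 was higher in neuroectoderm against hESC (0.83, adjusted p = 0.00091), and its call in mesendoderm against hESC (0.42, adjusted p = 0.034) was lost in 9 of 20 other settings. ADAM10, the main protease of ligand-induced cleavage, had log2 differences of 0.06 in neuroectoderm against hESC (adjusted p = 0.766) and 0.40 in mesendoderm against hESC (adjusted p = 0.055).

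Of the 4 tested genes for ligand ubiquitination, 2 were higher and 1 lower in neuroectoderm against hESC, and 2 were lower in mesendoderm against hESC. Of the 11 genes for receptor turnover and antagonists, 2 were higher and 2 lower in neuroectoderm against hESC and 2 higher and 3 lower in mesendoderm against hESC. Of all tested genes 44.2% were called in the first of these comparisons and 35.1% in the second. MIB1, which drives ligand endocytosis, averaged 20.6 RPKM in neuroectoderm, 12.9 RPKM in mesendoderm and 14.5 RPKM in hESC. Its call in neuroectoderm against hESC (0.49, adjusted p = 0.0304) was lost in 10 of 20 other settings, while that against mesendoderm (0.63, adjusted p = 0.00885) was kept in all 20. Of the Neuralized genes, NEURL1B was higher (0.75, adjusted p = 0.00193) and NEURL2 lower (-1.49, adjusted p = 1.22e-05) in neuroectoderm against hESC. DTX4, a Deltex ligase of the receptor, averaged 33.4 RPKM in neuroectoderm, 12.2 RPKM in mesendoderm and 7.30 RPKM in hESC. Its log2 difference in neuroectoderm against hESC was 2.04 (adjusted p = 1.95e-05). FBXW7, which marks the freed intracellular domain for degradation, was higher in mesendoderm against hESC (0.98, adjusted p = 6.19e-05), whereas DTX1 was lower there (-1.07, adjusted p = 0.00223).

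In the nucleus, RBPJ, the DNA-binding protein of the pathway, averaged 13.8 ± 1.93 RPKM in neuroectoderm, 12.1 ± 0.668 RPKM in mesendoderm and 18 ± 3.5 RPKM in hESC. It was called lower in mesendoderm against hESC (-0.52, limma, adjusted p = 0.0262), a call lost in 8 of 20 other settings (adjusted p = 0.0573 to 0.0951), and did not pass in neuroectoderm against hESC (-0.36, adjusted p = 0.0867). The coactivator MAML3 was higher than in hESC in both lineages (1.5 in neuroectoderm, adjusted p = 5.03e-05, and 1.24 in mesendoderm, adjusted p = 0.000217). KAT2B, a histone acetyltransferase of the complex, averaged 1.88 RPKM in neuroectoderm, 0.903 RPKM in mesendoderm and 0.187 RPKM in hESC. Among corepressors TLE4, a Groucho protein recruited by HES factors, averaged 71.6 ± 17.2 RPKM in neuroectoderm, 18.3 ± 1.32 RPKM in mesendoderm and 8.59 ± 0.411 RPKM in hESC. The related TLE2 averaged 0.167 RPKM in neuroectoderm, 0.580 RPKM in mesendoderm and 2.68 RPKM in hESC.

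The target genes of the HES and HEY families, which encode transcriptional repressors, were called in both directions, with 3 of 6 higher and 1 lower in neuroectoderm against hESC and 3 higher and 1 lower in mesendoderm against hESC. Of all tested genes 44.2% and 35.1% were called in these comparisons. HES5, a target in neural progenitors, had 4.22, 7.55 and 6.75 RPKM in neuroectoderm, against at most 0.09 RPKM in mesendoderm and 0.29 RPKM in hESC. Its log2 difference in neuroectoderm was 2.65 against hESC (limma, adjusted p = 5.19e-06) and 2.77 against mesendoderm (adjusted p = 2.78e-06). HES4 averaged 9.50 ± 3.25 RPKM in neuroectoderm, 0.240 ± 0.0964 RPKM in mesendoderm and 0.210 ± 0.0458 RPKM in hESC. HES1 had 23.5, 25.9 and 25.9 RPKM in mesendoderm and 9.27, 6.02 and 7.97 RPKM in hESC, a log2 difference of 1.59 (adjusted p = 0.000798), while in neuroectoderm against hESC it did not pass (-0.42, adjusted p = 0.184). HEY1 had 2.74, 1.37 and 2.15 RPKM in mesendoderm and 0.33, 0.29 and 0.30 RPKM in hESC, a log2 difference of 1.22 (adjusted p = 0.000611). Against mesendoderm, neuroectoderm was lower in HES1 (-2.01, adjusted p = 0.000117) and HEY1 (-0.96, adjusted p = 0.0015). HEY2 averaged 0.467 RPKM in neuroectoderm, 4.02 RPKM in mesendoderm and 2.35 RPKM in hESC, and HEYL 3.07, 0.297 and 1.42 RPKM. HEY2 was the lower target in neuroectoderm against hESC (-1.19, limma, adjusted p = 2.84e-05). HEYL was the lower target in mesendoderm against hESC (-0.90, adjusted p = 0.000131). In neuroectoderm against mesendoderm HEY2 was lower (-1.77, adjusted p = 1.74e-06) and HEYL higher (1.64, adjusted p = 1.66e-06).

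**Figure D5:**
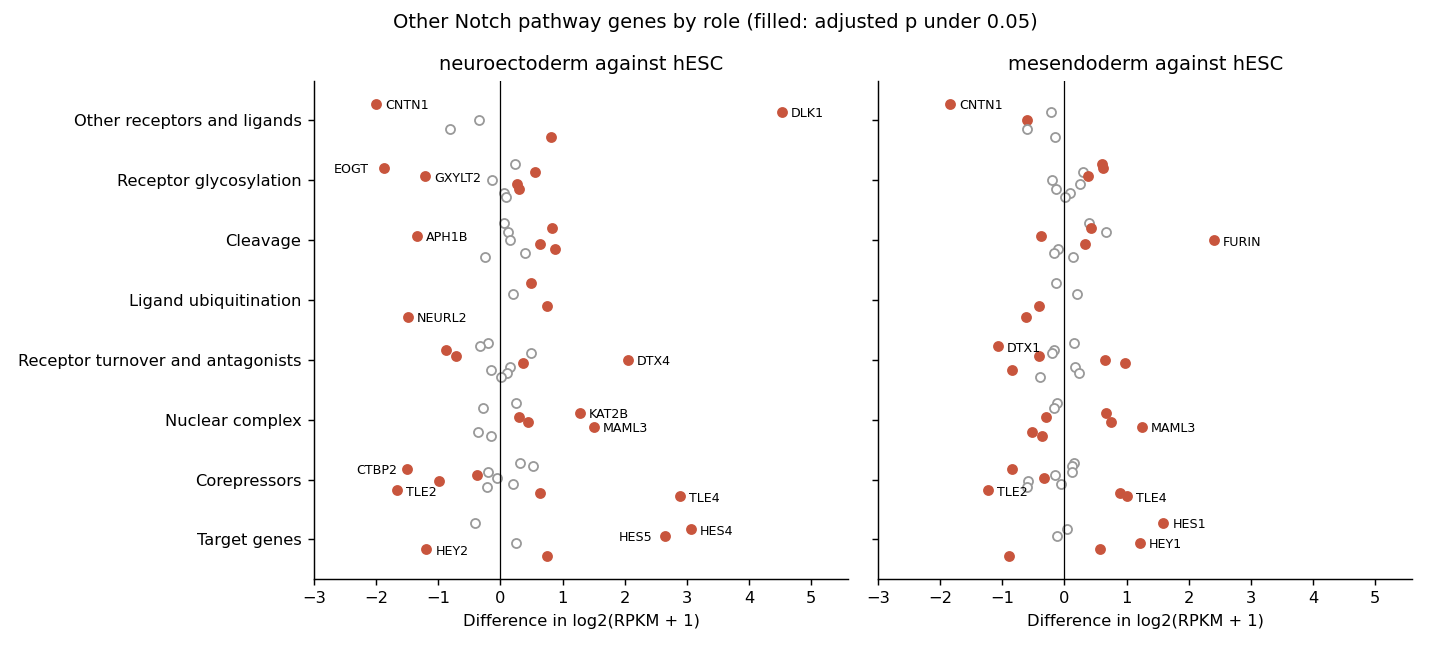
Log2 difference (log2 of RPKM + 1) of the 64 tested other pathway genes, 1 point a gene, by role in the 2 comparisons with hESC, with filled points for calls at an adjusted p under 0.05. DLK1 (4.53) and HES4 (3.06) are the highest in neuroectoderm against hESC, and CNTN1 (-2.0) is the lowest.

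The genes whose profile over the 9 libraries was nearest to that of JAG1 and of DLL3 were found by the root mean square difference of log2(RPKM + 1) values, each centred on the gene's own mean, among 9199 genes. AXIN2, a feedback inhibitor of Wnt signalling, was nearest to JAG1 at 0.099. It averaged 73.5 ± 22.7 RPKM in neuroectoderm, 12.7 ± 0.235 RPKM in mesendoderm and 7.82 ± 0.626 RPKM in hESC. SDK2 (0.154), ANGPTL4 (0.176) and RTN4RL1 (0.206) came next. Genes near to DLL3 included MXRA8 (0.380), COL9A2 (0.414) and CRIP2 (0.414), at larger distances than any of the 4 nearest to JAG1. The likeness is a description over 9 libraries in 3 groups, most of it set by the differences between the groups.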

How the data were processed

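Total RNA depleted of ribosomal RNA was sequenced on the Ion Torrent platform, per the labels' protocols. The deposited table holds RPKM values, made by the authors, for 38759 RefSeq transcripts. Per the submitters' processing notes, TopHat, TopHat2 2.0.13 and Bowtie2 were used with human build hg19. Not given in the sources used here are the tool that counted reads, whether it used strand, how it treated multiply matching reads and which reads form the RPKM denominator.

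For each symbol the row of highest mean was kept. Those 14473 that averaged 0.5 RPKM or more were analysed as log2(RPKM + 1), which understates changes at low levels, with limma 3.58.1 (R 4.3.3, mean-variance trend, empirical Bayes, two-sided). All 9 libraries entered 1 fit with group, taken from the sample titles, as the only term. P-values were adjusted by Benjamini-Hochberg over all 14473 genes and called under 0.05. The step size of low values was whole within 0.1 of a read for 92.7% to 97.1% of 114 to 189 values a library. Tables were handled with Python 3.11.15.

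The 10 members and the lists were chosen with earlier results of these data known. Beyond the members, the genes named are up to 2 called genes of each pathway role and comparison with the largest absolute log2 difference, 8 core pathway genes, markers beside a result, and the 4 genes nearest to the members with the largest change. Not every gene that the rule allows is described, and a few are not reported here. FAM120B was named for its overlap with DLL1, and HEY2 and HEYL to complete the listed target genes. Overlaps, transcript lengths and GC content are from GENCODE v29 (GRCh38) and promoter windows from RefSeq (GRCh38.p14); neither build is that of the files, so no coordinates were taken between them.

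The replicate numbers of the titles were checked for pairing. Between neuroectoderm and mesendoderm the deviations of same-numbered libraries correlated at 0.39, 0.25 and 0.23, each over 0.1. A paired fit of these 6 libraries was therefore added after seeing the data. Differently numbered libraries also correlated, at 0.24 for neuroectoderm 3 with mesendoderm 2 and 0.15 for neuroectoderm 2 with mesendoderm 3. Other differently numbered pairs, each with a library 1, lay between -0.37 and -0.20. Outside these 2 groups, hESC 2 correlated with mesendoderm 1 at 0.404 and with neuroectoderm 1 at 0.787. The correlations thus do not show that libraries pair by number. Alternatives were a pseudocount of 0.1, no minimum, a minimum of 1 RPKM, 3 other scalings, the mean over all transcripts, a replicate block, only the 2 groups compared, no trend, leaving out each library, and leaving out 3 libraries.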

Additional observations from a re-analysis of the deposited data

Results flagged for a closer look

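For 6 members the change against hESC differed between the lineages, tested as neuroectoderm against mesendoderm in the same limma fit with Benjamini-Hochberg adjustment over all tested genes. On the log2 scale of RPKM + 1 the difference was 1.42 for NOTCH2 (adjusted p = 2.37e-05), 2.34 for DLL1 (adjusted p = 4.58e-05), 2.35 for JAG1 (adjusted p = 5.37e-06), 3.30 for LFNG (adjusted p = 7.71e-06) and 1.45 for MFNG (adjusted p = 0.00123), all higher in 3 of 3 neuroectoderm libraries than in any mesendoderm library. These 5 kept their calls in each of the 20 other settings. For DLL3 it was -1.46 (adjusted p = 0.0393), with overlapping ranges and a call lost in 11 of 20 other settings and in a paired fit of these 2 groups (adjusted p = 0.0964). Among all tested genes 48.1% were called in this comparison.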

How the results depend on the processing

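Across 20 other settings the members kept direction and side of the threshold in 488 values, passed the threshold anew in 13, lost it in 25 and changed sign in 11, and the other pathway genes did so in 1820, 24, 105 and 22. NOTCH2, DLL1, JAG1 and LFNG in neuroectoderm against hESC kept their calls in all 20 settings.

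With small RNA genes left out and the values rescaled, the all-gene median moved to -0.12 in neuroectoderm against hESC and in mesendoderm against hESC. Of all tested genes 2060 were then higher and 3525 lower in neuroectoderm against hESC (36.9% of the calls higher), against 3165 and 3227 (49.5%) as deposited. In mesendoderm against hESC 1714 were higher and 2781 lower (38.1%), against 2457 and 2620 (48.4%). Signs turned under this scaling in neuroectoderm against hESC for JAG2 (-0.008), ADAM10 (-0.064) and RFNG (-0.065), and in mesendoderm against hESC for NOTCH2 (-0.055), RFNG (-0.048) and HES4 (-0.001). Quantile normalisation turned JAG2 in mesendoderm against hESC (0.059) and RFNG in neuroectoderm against mesendoderm (0.024). Without the 3 libraries that stood apart, NOTCH3 (0.010), JAG2 (0.040) and RFNG (-0.052) turned in mesendoderm against hESC, and RFNG (0.166) in neuroectoderm against mesendoderm. The mean over transcripts turned POFUT1 in neuroectoderm against mesendoderm (-0.033) and moved the LFNG share of the Fringe genes to 77.0% in neuroectoderm and 39.5% in hESC. None of these genes was called with either sign, and the cause was not tested.

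With 1 library left out at a time, log2 differences crossed 0 in neuroectoderm against hESC for NOTCH1 (-0.472 to 0.104), JAG2 (-0.062 to 0.209), ADAM10 (-0.016 to 0.108), RFNG (-0.046 to 0.211) and FURIN (-0.061 to 0.473). They crossed 0 in mesendoderm against hESC for NOTCH3 (-0.112 to 0.081), JAG2 (-0.073 to 0.038), MIB1 (-0.245 to 0.009), RFNG (-0.013 to 0.196), DLK1 (-0.371 to 0.050) and HES4 (-0.008 to 0.099), and in neuroectoderm against mesendoderm for JAG2 (-0.032 to 0.239), POFUT1 (-0.015 to 0.081) and RFNG (-0.115 to 0.127). The count of other pathway genes lower in mesendoderm against hESC ranged from 8 to 18. That of all tested genes ranged from 1813 to 3446.

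Same-numbered hESC libraries did not pair with those of neuroectoderm (correlations of deviations from the group means of -0.62, -0.74 and 0.40) or mesendoderm (-0.49, -0.30 and 0.06). With the replicate block over all 9 libraries, 2773 genes were higher and 2870 lower in neuroectoderm against hESC, 2100 and 2124 in mesendoderm against hESC, and 3096 and 3154 in neuroectoderm against mesendoderm. In the paired fit of neuroectoderm and mesendoderm alone, chosen after seeing the data, 3242 were higher and 3489 lower. Among the members it changed only the calls of NOTCH3 (gained) and DLL3 (lost). Depth limits DLL4 and, in mesendoderm, MFNG.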
